A study of Homo sapiens with 8 samples.

Results

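The genes described are 5 integrin chains, ITGB7, ITGA4, ITGAL, ITGB2 and ITGB1, and the heparan sulfate proteoglycan SDC4 (syndecan-4), measured in L363 myeloma cells given the IKKβ inhibitor MLN120B. An array feature was a member if the platform annotation paired it with one of these 6 genes and it had a value on 6 or more of the 8 arrays. Of the 23 features paired with these genes, 14 met that rule, out of 15246 features in all and 8800 with values on 6 or more arrays. ITGA4 and ITGB2 had 4 member features each, ITGB7 had 3, and ITGAL, ITGB1 and SDC4 had 1 each. Each gene was summarised as the mean of those of its member features that had a value on an array. The features behind a gene can therefore differ between arrays.

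L363 is an established human cell line, labelled as multiple myeloma of the bone marrow, and it is the only line here. Every array was a 2-colour array with cDNA of MLN120B-treated L363 cells in Cy5 and cDNA of L363 cells given the solvent DMSO in Cy3. The treated cells had received 12.5 µM MLN120B at 37 °C for 8 h (2 arrays), 12 h (3 arrays) or 24 h (3 arrays), and the labels give no time for the DMSO cells. MLN120B is a small molecule that blocks IKKβ, the kinase that starts the breakdown of the inhibitors of NF-κB. The dyes were never swapped, and treatment and dye bias therefore cannot be told apart. Values are log2 ratios centred on the median of the array, likely MLN120B over DMSO. A positive value means a higher ratio with the inhibitor than the median feature of that array had. If the deposited sign ran the other way, every direction below would turn and all sizes would stay. Whether the samples of a time point were separate cultures is not in the labels. All p-values therefore reflect the spread among these samples, part or all of which may be technical. The ratios carry no level, so the plasma cell identity could not be checked from marker levels, although all 9 plasma cell markers listed for the check had a tested ratio.

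Experiment identifiers in the labels form 3 blocks of near-consecutive numbers, referred to as database runs. The 12 h and 24 h arrays of sample 3 make up run 1. Those of sample 1 fall in run 2 together with the 8 h array of sample 2, and those of sample 2 fall in run 3 together with the 8 h array of sample 1. Arrays had values for 6344 to 13007 features. Features spread most widely on the 3 arrays of run 2 (SD 1.00 to 1.42), less in run 1 (0.35 and 0.58) and least in run 3 (0.21 to 0.28), so a ratio of a given size stood further out in run 3 than in run 2. The list of NF-κB feedback genes held NFKBIA, TNFAIP3, NFKBIE and the subunit genes NFKB2 and RELB. Their means over the 3 times were below 0 in 5 of 5 cases. They were listed as a check of the treatment with earlier results of these data known, so this count is no independent check. Of all 5226 rows, 2756 had means below 0. NFKBIA, which encodes the NF-κB inhibitor IκBα and is itself induced by NF-κB, was at -0.92 ± 0.13 (SE, n = 8; limma unadjusted p = 7.18e-05, adjusted p = 0.375).

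Integrins are receptors made of an α and a β chain that bind matrix proteins or counter-receptors on other cells, and which partner a chain takes sets what the cell can bind. The chain β7 pairs with α4 to bind the mucosal addressin MAdCAM-1, VCAM-1 and fibronectin, or with αE to bind E-cadherin. The chain α4 also pairs with β1 to form VLA-4, αL pairs with β2 to form LFA-1, a receptor for ICAMs, and syndecan-4 is a transmembrane proteoglycan that works with β1 integrins at contacts with fibronectin. Myeloma cells use VLA-4, LFA-1 and, where β7 is made, α4β7 to hold on to the bone marrow stroma.

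Because the treatment acts on NF-κB, the bases before the start of the gene with the largest ratio, ITGB7, are shown beside those of SDC4, whose window holds a match to the NF-κB consensus. Both are RefSeq sequence of GRCh38.p14, 250 bases up to the base before the start, written 5′ to 3′ on the strand of the gene. ITGB7 lies at chr12:53207252-53207501 on the minus strand and SDC4 at chr20:45348425-45348674 on the minus strand. Capitals mark the match to the consensus, which was searched on both strands.
ITGB7: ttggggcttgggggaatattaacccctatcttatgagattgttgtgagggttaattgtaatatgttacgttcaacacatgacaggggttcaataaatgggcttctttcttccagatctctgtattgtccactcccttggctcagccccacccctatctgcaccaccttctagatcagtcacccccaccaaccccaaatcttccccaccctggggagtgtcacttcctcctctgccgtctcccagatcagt
SDC4: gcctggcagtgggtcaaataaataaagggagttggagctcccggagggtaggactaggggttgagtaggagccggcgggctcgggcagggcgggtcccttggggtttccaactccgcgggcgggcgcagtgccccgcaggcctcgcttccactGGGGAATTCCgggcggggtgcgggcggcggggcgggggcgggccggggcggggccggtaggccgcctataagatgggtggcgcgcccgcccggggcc
The match of SDC4, GGGGAATTCC, lies from -97 to -88, counting the base before the start as -1. No match was found in the window of ITGB7 or of ITGA4. No window was available for ITGAL or ITGB2, so these were not searched. The table listed ITGB1 with 2 starts, of which 1 had a match, GGGAGGCCCC from -10 to -1, that reads as one on both strands. Among 35116 promoter windows of the same length, 9.96% held at least 1 match. Neither the RUNX core TGTGGT (11% of windows) nor the MAF half-site TGCTGA (14%) was found in the window of ITGB7. The window of ITGA4 held 1 MAF half-site. These are matches of letters, and the arrays did not measure binding there.

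ITGB7 had the highest ratios of the 6 genes at 24 h. Its mean ratio there was 3.04-fold that of the median feature, at 1.60 ± 0.67 on the log2 scale (SD, n = 3), or 1.44 as deposited. Its mean was -0.13 ± 0.69 at 8 h (n = 2) and 0.32 ± 0.97 at 12 h (n = 3). After quantile or scale normalization its 8 h mean was above 0, at 0.33 in both cases. Its 12 h mean was 1.18 after quantile normalization and -0.14 without sample 3, and its 24 h mean was 2.80 after quantile normalization. No member gene passed an adjusted p of 0.05 in limma's test over all rows in any of 7 comparisons, so these are measured values and not called changes.

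On the 2 arrays at 8 h, ITGB7 read 0.36 (sample 1) and -0.62 (sample 2). On samples 1, 2 and 3 it was at -0.70, 0.43 and 1.23 at 12 h, and at 1.95, 0.83 and 2.04 at 24 h. All 3 values at 24 h lay above both values at 8 h, and they overlapped those at 12 h, where sample 3 stood higher than sample 2 did at 24 h. Both values below 0 belonged to run 2, whose arrays had the widest spread. Within each run the 24 h ratio was the highest: it exceeded the 12 h ratio by 0.80 (run 1), 2.65 (run 2) and 0.40 (run 3). Over the 8 h ratio the excess was 2.57 in run 2 and 0.47 in run 3. On sample 1 at 8 h, of run 3, the gene rested on features 28038_1 and 35043_1 alone. Member feature 17515_1 had no value there and read 0.51 on the 24 h array of that run. Fitted alone with limma, 24 h exceeded 8 h by 1.19 ± 0.51 for 28038_1 and by 1.85 ± 0.54 for 35043_1 (SE).

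In limma's model over all 8 arrays, the 24 h ratio of ITGB7 was 1.60 ± 0.39 (SE; unadjusted p = 0.00253, adjusted p = 1.0 after Benjamini-Hochberg adjustment over 5226 rows). This model weighted all arrays equally although their spreads differed, and with array weights the 24 h ratio was 1.37 ± 0.25 (SE). Of the 5 tested member genes, ITGB7 alone had an unadjusted p under 0.05 at 24 h without weights, as did 117 of all rows (2.24%). That p with a higher ratio was reached by 0.612% of rows, and an adjusted p under 0.05 by 0% in each of the 7 comparisons. Among the 3126 named genes tested, ITGB7 ranked 3 by its ratio and 5 by its p at 24 h. A ratio of at least 0.5 on all 3 arrays at 24 h, a cut not among the planned tests, was seen in 5 of 3628 rows (0.138%). Besides ITGB7 these were CCDC86, SNX18, INSIG1, which restrains sterol synthesis, and 1 feature with no gene listed, named after their values were seen. The difference of 24 h from 8 h was 1.73 ± 0.61 (SE; limma unadjusted p = 0.0199, adjusted p = 0.985), or 1.07 without run 2 and 2.61 without run 3, and 0.44% of rows reached an unadjusted p under 0.05 in that direction. The difference of 24 h from 12 h was 1.28 ± 0.55 (limma unadjusted p = 0.0441, adjusted p = 1.0), against 0.306% of rows. With array weights the latter was 0.78. Without run 2 it was 0.60 and without sample 1 at 12 h it was 0.77. That array of run 2 thus set much of the size of this difference. The mean over the 3 times was 0.60 ± 0.24 (SE; limma unadjusted p = 0.0355, adjusted p = 0.866), with 1.68% of rows reaching such a p in that direction, and it was 0.37 without run 1, 1.44 after quantile normalization and 0.92 after scale normalization. An exact 2-sided sign-flip test of the mean over the 8 arrays gave p = 0.117 (adjusted over 3368 rows p = 0.656), where 8 arrays allow no p under 0.00781. Arrays of a run are not independent, and 3 runs taken as units allow no p under 0.25.

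**Figure D1:**
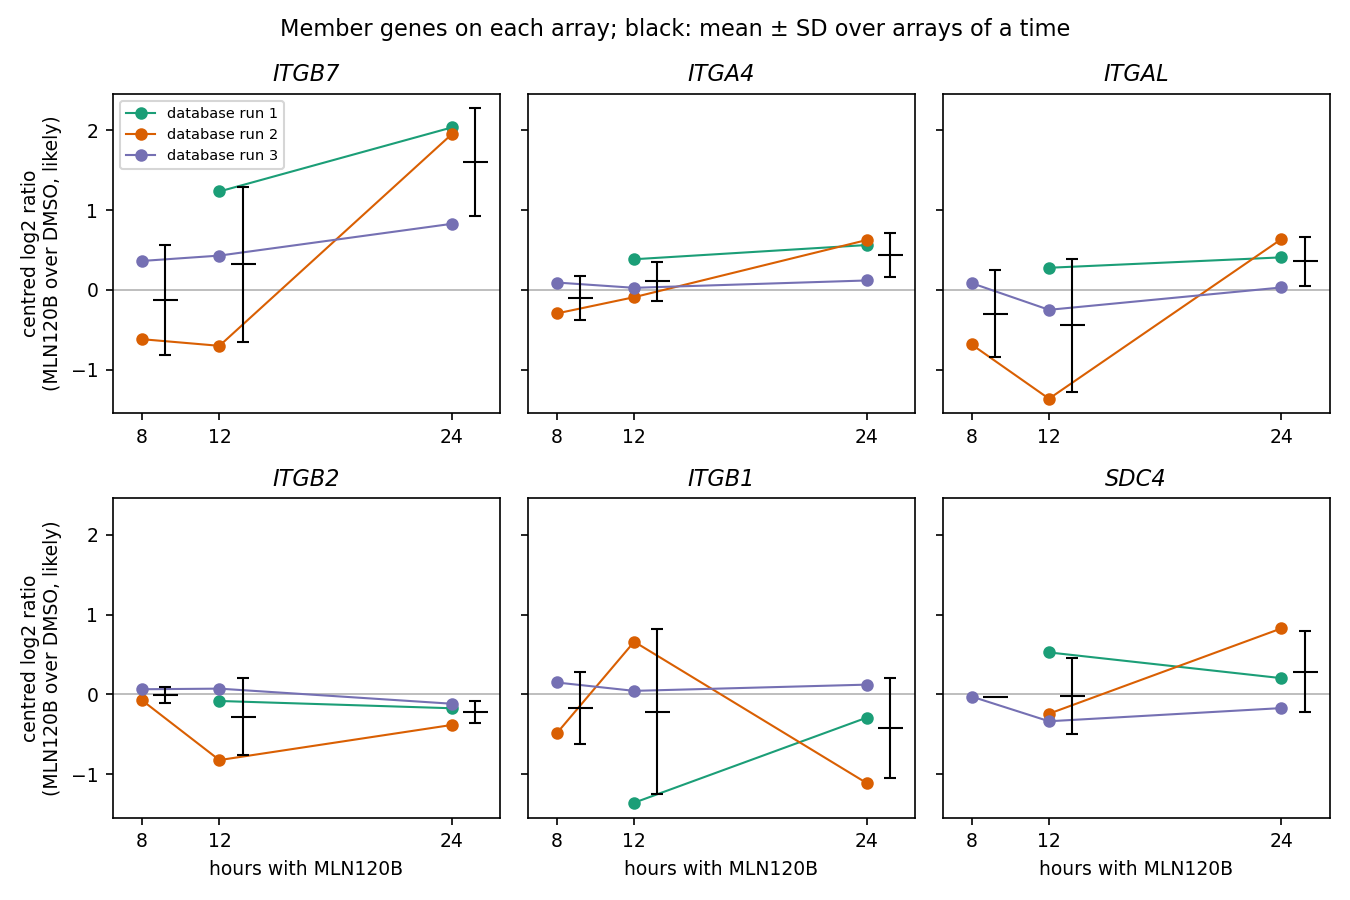
Centred log2 ratio (vertical axis) against hours with MLN120B (horizontal axis) for the 6 genes. Points are arrays, coloured lines join arrays of a database run, and black marks show the mean ± SD of a time (at 8 h n = 2, and 1 value without SD for SDC4). ITGB7 reaches 0.83 to 2.04 at 24 h, ITGA4 and ITGAL stay between 0.03 and 0.64 there, and the 24 h values of ITGB2 lie below 0.

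The 3 member features of ITGB7 are separate spots annotated to the gene, and they shared a sign on every array at 24 h but not on every earlier array. All 9 of their values at 24 h lay above 0, from 0.51 to 2.57. Feature 28038_1 was at 1.24, 1.27 and 1.99 on samples 1, 2 and 3 at 24 h, feature 35043_1 at 2.04, 0.69 and 1.81, and feature 17515_1 at 2.57, 0.51 and 2.30. The first had the smallest range of the 3 and stood below 0 on 1 array, sample 1 at 12 h, at -0.15. Feature 17515_1 swung most, from -1.61 on sample 1 at 12 h to 2.57 on the same sample number at 24 h. Fitted alone with limma, 28038_1 gave 1.50 ± 0.32 (SE; unadjusted p = 0.000978) and 35043_1 gave 1.52 ± 0.34 (unadjusted p = 0.00139) at 24 h, each with an adjusted p of 1.0. Feature 17515_1 had 1 value at 8 h and was not fitted alone. A further feature, 25230_1, had 3 values, all on run 2, and was no member. It read 1.25 at 8 h, 0.51 at 12 h and 0.043 at 24 h, where the mean of the member features on the same arrays was -0.62, -0.70 and 1.95.

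**Figure D2:**
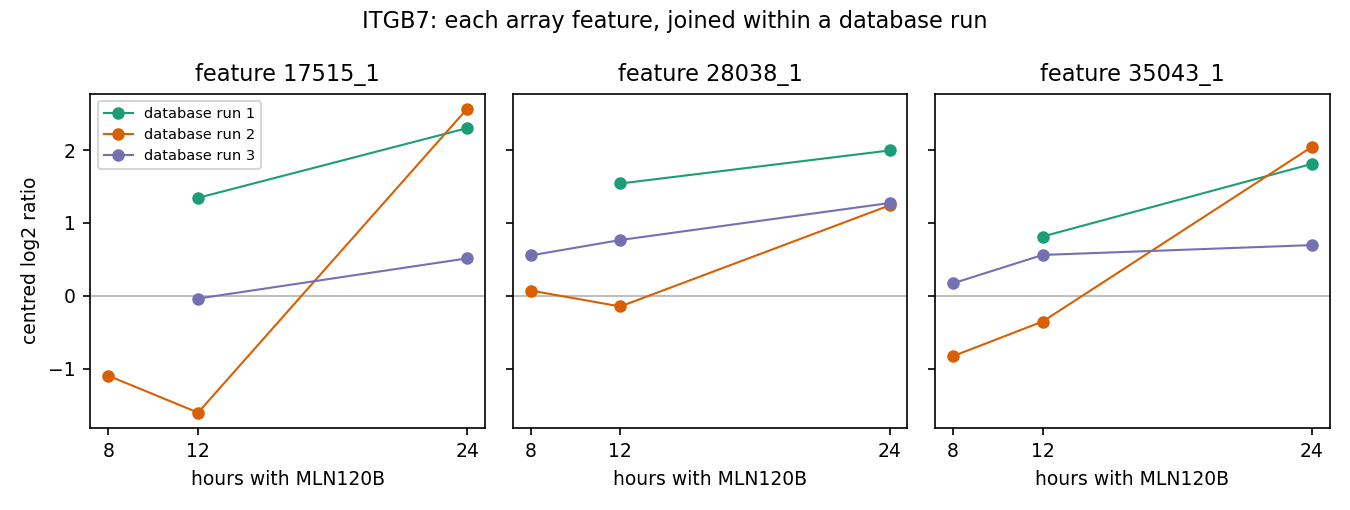
Centred log2 ratio (vertical axis) of each member feature of ITGB7 against hours with MLN120B (horizontal axis), with points joined within a database run. The 3 features lie above 0 on all 3 arrays at 24 h (0.51 to 2.57), and feature 17515_1 has the widest range in run 2.

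ITGA4, the α4 partner of β7 and β1, had small ratios that were also highest at 24 h. It was at 0.091 and -0.30 on samples 1 and 2 at 8 h. On samples 1, 2 and 3 it was at -0.093, 0.025 and 0.38 at 12 h and at 0.62, 0.12 and 0.56 at 24 h. The values at 24 h lay above both at 8 h and overlapped those at 12 h. The 24 h mean was 0.43 ± 0.28 (SD, n = 3), a 1.35-fold ratio, which limma put at an unadjusted p of 0.0674 and an adjusted p of 1.0. Of the 12 feature values at 24 h 11 lay above 0, the exception being -0.063 for feature 35040_1 on sample 2. Over the 3 times, feature 30482_1 averaged -0.050 and the other 3 averaged 0.15 to 0.28, so the features did not share a sign for the mean. The mean of the gene over the 3 times was 0.15 ± 0.13 (SE; limma adjusted p = 0.868), and it was 0.016 with the values as deposited.

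ITGB7 stood above its partner ITGA4 by 1.17 ± 0.41 at 24 h (SD, n = 3), and on 6 of the 8 arrays in all. The exceptions were sample 2 at 8 h and sample 1 at 12 h, both of run 2. ITGAE, the αE chain that is the other partner of β7, was at 0.028 ± 0.26 at 24 h (SE; limma unadjusted p = 0.914). Its ligand E-cadherin, CDH1, was at -0.72 ± 0.23 at 24 h (limma unadjusted p = 0.0126, adjusted p = 1.0). Both were chosen after their values were seen. The ratios of 2 genes on an array are each relative to DMSO, so a difference between them shows unequal change and no difference in level.

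The 2 chains of LFA-1 did not share a direction at 24 h. ITGAL (αL, feature 15875_1) was at 0.084 and -0.69 on samples 1 and 2 at 8 h. It was at -1.37, -0.25 and 0.28 on samples 1, 2 and 3 at 12 h, and at 0.64, 0.029 and 0.41 at 24 h. Its values at 24 h were above 0 on all 3 arrays and overlapped the earlier ones, and the lowest value came from run 2. The 24 h mean was 0.36 ± 0.31 (SD, n = 3; limma adjusted p = 1.0) and 0.22 without sample 1. The gap between 24 h and 12 h, 0.80 ± 0.45 (SE; limma unadjusted p = 0.106), was 0.21 without run 2, and the mean over the 3 times, -0.13 ± 0.20, turned to 0.10 without that run and to 0.011 after scale normalization. A further 4 features of ITGAL had values on 5 or fewer arrays. The lowest was -2.98 for 28433_1 on sample 2 at 8 h. The highest was 1.90 for 24271_1 on sample 1 at 12 h, where the member feature read -1.37. On sample 3 at 12 h, 29807_1 read -0.93 and 30029_1 read -1.60, whereas 28433_1 read 0.125 and the member feature 0.28. Averaging all features moved the 8 h mean from -0.30 to -0.96 and the 12 h mean from -0.45 to -0.11. The excess of 24 h over 8 h then rose from 0.66 to 1.39, and that over 12 h fell from 0.80 to 0.54.

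ITGB2 (β2, the chain shared by all leukocyte β2 integrins) was at 0.064 and -0.073 on samples 1 and 2 at 8 h. On samples 1, 2 and 3 it was at -0.82, 0.072 and -0.083 at 12 h and at -0.38, -0.12 and -0.17 at 24 h. The 24 h values were below 0 on all 3 arrays, as for 14.7% of rows, and lay below both at 8 h, as for 9.18% of rows. Their mean was -0.22 ± 0.14 (SD, n = 3), or 0.856 times the ratio of the median feature (limma unadjusted p = 0.338, adjusted p = 1.0), and -0.15 without sample 1. The 4 features of ITGB2 disagreed: at 24 h 16465_1 averaged -0.53 and 24669_1 averaged -0.52, whereas 26614_1 averaged 0.078 and 27052_1 averaged 0.030. Feature 16465_1 read -1.59 on sample 1 at 24 h, an array of run 2 where 24669_1 had no value. With the median of the features in place of their mean, chosen after the data were seen, ITGB2 was at -0.056 at 24 h. Over the 8 arrays ITGB2 was below 0 on 6, with an exact sign-flip p of 0.0547 (adjusted p = 0.542), and 9.14% of the 3368 rows had such a p under 0.05. ITGAL exceeded ITGB2 by 0.58 ± 0.44 at 24 h (SD, n = 3) and on 5 of the 8 arrays in all.

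ITGB1 (β1, the partner of α4 in VLA-4 and of most matrix-binding α chains) had no common direction. It was at 0.15 and -0.49 on samples 1 and 2 at 8 h. On samples 1, 2 and 3 it was at 0.66, 0.044 and -1.36 at 12 h and at -1.11, 0.12 and -0.29 at 24 h. The values of the times overlapped throughout, and the gene was above 0 on 4 arrays and below it on 4. Runs ordered it differently: the 24 h ratio exceeded that at 12 h by 1.07 in run 1 and by 0.078 in run 3, and was lower in run 2, at -1.77. Its 24 h mean was -0.43 ± 0.63 (SD, n = 3; limma adjusted p = 1.0), which was -0.085 without sample 1 and -0.70 without sample 2. The mean over the 3 times was -0.27 ± 0.24 (SE; limma adjusted p = 0.866). It became -0.082 without sample 3 at 12 h, -0.16 without sample 1 at 24 h, -0.17 without sample 2 at 8 h and -0.42 without sample 1 at 12 h. A single feature, 28434_1, stood for the gene. ITGB7 exceeded ITGB1 by 2.03 ± 1.21 at 24 h (SD, n = 3) and on 6 of the 8 arrays.

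SDC4 had 1 member feature, 17842_1, with 7 values. It was at -0.027 on sample 1 at 8 h, with no value on sample 2. On samples 1, 2 and 3 it was at -0.24, -0.34 and 0.53 at 12 h and at 0.83, -0.17 and 0.20 at 24 h. It lay above 0 on 3 arrays and below it on 4, and the times overlapped. With only 1 value at 8 h it did not enter the test over all rows. Where 1 array at each time was enough, limma gave 0.080 ± 0.21 (SE) for the mean over the 3 times (unadjusted p = 0.707, adjusted p = 0.966) and 0.29 ± 0.28 at 24 h (adjusted p = 1.0). The value depended on which features were let in. Averaging all 3 features of SDC4 gave 1.01 for the mean over the 3 times, and this rested on feature 28564_1. That feature had values on 2 arrays of run 2, reading 9.82 for sample 2 at 8 h and 3.53 at 24 h for sample 1, which are 6.91 and 3.52 times the SD of those arrays. On the first of these arrays the third feature of the gene, 27296_1, read -0.26, and on the second the member feature read 0.83.

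Seen as positions on their own arrays, the 6 genes spread over almost the whole range of named genes. ITGB7 exceeded 99.2%, 99.8% and 100% of the named genes on samples 1, 2 and 3 at 24 h. In counts, 20 of 2420, 4 of 3103 and 0 of 3044 named genes had a higher ratio on these arrays. At 8 h it exceeded 97.9% on sample 1 but 19.3% on sample 2. At 12 h it exceeded 98.6% on sample 2 and 99.9% on sample 3, but 25.6% on sample 1. ITGB7 thus stood among the highest genes on all 5 arrays of runs 1 and 3 at every time measured, and in run 2 at 24 h alone. ITGA4 lay from 75.8% to 98.4% at 24 h and ITGAL from 60.7% to 95%. ITGB2 lay from 23.2% to 33.2%, ITGB1 from 10.3% to 76.4% and SDC4 from 22.4% to 89.3%.

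**Figure D3:**
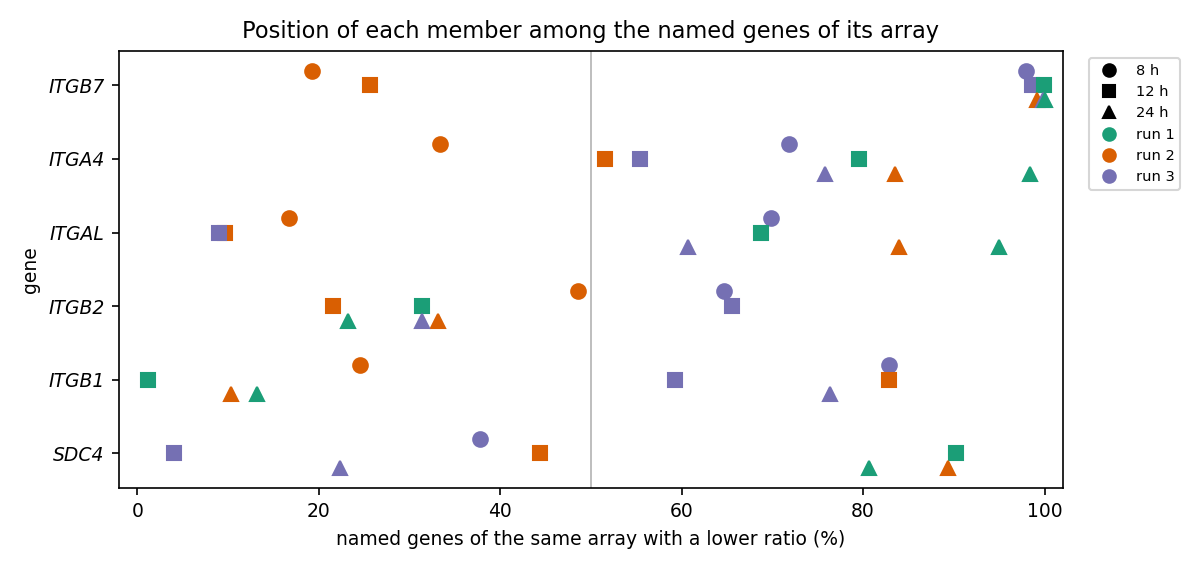
Share of the named genes on the same array that had a lower ratio (horizontal axis, percent) for each gene (vertical axis), 1 mark per array. Shape gives the time and colour the database run. ITGB7 lies at 97.9% or higher on 6 of 8 arrays, and its 2 low marks, 19.3% and 25.6%, are both of run 2.

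Of the 5 tested member genes, ITGB7, ITGA4 and ITGAL were above 0 on all 3 arrays at 24 h, as were 11.4% of 3628 rows. The same 3 genes had a higher ratio at 24 h than at 12 h in each of the 3 runs, as did 9.09% of 3368 rows. ITGB7 and ITGA4 were also above every earlier array of their run at 24 h (4.69% of rows), and their 24 h arrays all lay above both 8 h arrays (7.36% of 3628 rows). By the mean at 24 h the genes ran from ITGB7 over ITGA4, ITGAL, SDC4 and ITGB2 to ITGB1. ITGB7, with a lowest value of 0.83, lay above every 24 h value of ITGA4, whose highest was 0.62. Each other pair of neighbours in that order had overlapping values.

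The genes most like ITGB7 over the 8 arrays were SCD, CCDC86 and NDRG1. Likeness was the root mean square difference between centred ratios divided by the SD of each array, over 2193 named genes with all 8 values, for which its median was 2.71. SCD, the desaturase that makes monounsaturated fatty acids, differed from ITGB7 by 0.999 SD and was at 0.77 ± 0.26 at 24 h (SE). CCDC86 differed by 1.42 SD and was at 0.82 ± 0.26, and NDRG1, a stress-induced gene, differed by 1.52 SD and was at 0.60 ± 0.26. None of them passed limma's test at 24 h, with an adjusted p of 1.0 for each. Arrays of a run resemble each other, so these are descriptions. SDC4 lacked 1 array and was not compared in this way.

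The highest 24 h ratio among the other integrin, adaptor, ligand, receptor and proteoglycan genes listed was 0.97, for ACTN1, an actin cross-linker at integrin contacts, which read 2.28 on sample 1 and 0.30 and 0.31 on the other arrays of that time and was named after its value was seen. Of 10 tested integrin α chains outside the 6 genes, 5 had means over the 3 times above 0 and 5 below. Their median was -0.0030, and over all 5226 rows it was -0.013, with 2470 rows above 0 and 2756 below. At 24 h the median of these α chains was 0.014 and that of all rows -0.026. ITGA8, which pairs with β1, was at -0.27 ± 0.20 (SE, mean over the 3 times) and above 0 without run 2 (0.13) or after quantile or scale normalization. ITGA3, a laminin receptor chain, was at -0.56 ± 0.66, which rested on -5.67 for sample 1 at 12 h. It was 0.093 without that array and also above 0 after quantile normalization. The 3 tested β chains had a median of 0.33, with ITGB3, the platelet and αV partner, at 0.42 ± 0.18 and ITGB5 at 0.33 ± 0.16. Without run 2 these were 0.11 and 0.086, so both sizes came mostly from the arrays with the widest spread.

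Of the other heparan sulfate proteoglycans, 3 of 10 listed genes were tested, 1 above and 2 below 0. SDC3 was at 0.16 ± 0.16 (SE) and SDC2 at -0.19 ± 0.15, and SDC1, the plasma cell syndecan CD138, was at -0.053 ± 0.165, the last named after its value was seen. Enzymes of heparan sulfate synthesis and shedding were above 0 in 5 of 7 cases, with a median of 0.11. B3GAT3, which completes the linker to the core protein, was at 0.20 ± 0.20 and at 0.65 ± 0.33 at 24 h, with 1.77 on sample 1 there. XYLT1, which starts the sugar chain, was at 0.19 ± 0.19.

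Of the 9 tested integrin ligands 7 lay below 0 at 24 h, with a median of -0.24, where 2826 of the 5226 rows lay below 0. ICAM1 and ICAM3, ligands of LFA-1, were at -0.28 ± 0.21 and -0.26 ± 0.14 over the 3 times (SE), and none of the 9 passed limma's test. ICAM1 read -1.60 on sample 1 at 12 h and was -0.11 without that array. Among 13 integrin adaptors, 6 had means above 0 and 7 below, with RAP1A, a small GTPase that activates integrins, at 0.34 ± 0.14. SKAP1, an adaptor that recruits RAP1 signalling to LFA-1, was at 0.33 ± 0.24 and turned to -0.040 without run 2. The 17 other leukocyte adhesion receptors had a median of -0.013, with CD99 at -0.32 ± 0.17. CXCR4, the receptor that brings myeloma cells to CXCL12 in the marrow, was at -0.24 ± 0.12 over the 3 times and at -0.51 ± 0.19 at 24 h (limma unadjusted p = 0.0243, adjusted p = 1.0). It was below 0 on 7 of 8 arrays.

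Factors known at integrin promoters, 10 tested of 12 listed, had a median of -0.16, and 2 lay above 0. At 24 h 9 of 10 were below 0, as were 2826 of all 5226 rows, with a median of -0.18. ETS1, named after its values were seen, was the only factor with an unadjusted p under 0.05. It was at -0.33 ± 0.13 over the 3 times (SE; limma unadjusted p = 0.0298) and at -0.56 ± 0.20 at 24 h (limma unadjusted p = 0.0236), and it lay below 0 on all 6 arrays at 12 h and 24 h. GATA3 was at -0.74 ± 0.54 (SE, mean over the 3 times), resting on -5.10 for sample 1 at 12 h. IKZF1 was at -0.68 ± 0.38, resting on -4.20 for sample 2 at 8 h. Without run 2 they were at 0.10 and 0.071. None of the factors passed limma's test over all rows.

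**Figure D4:**
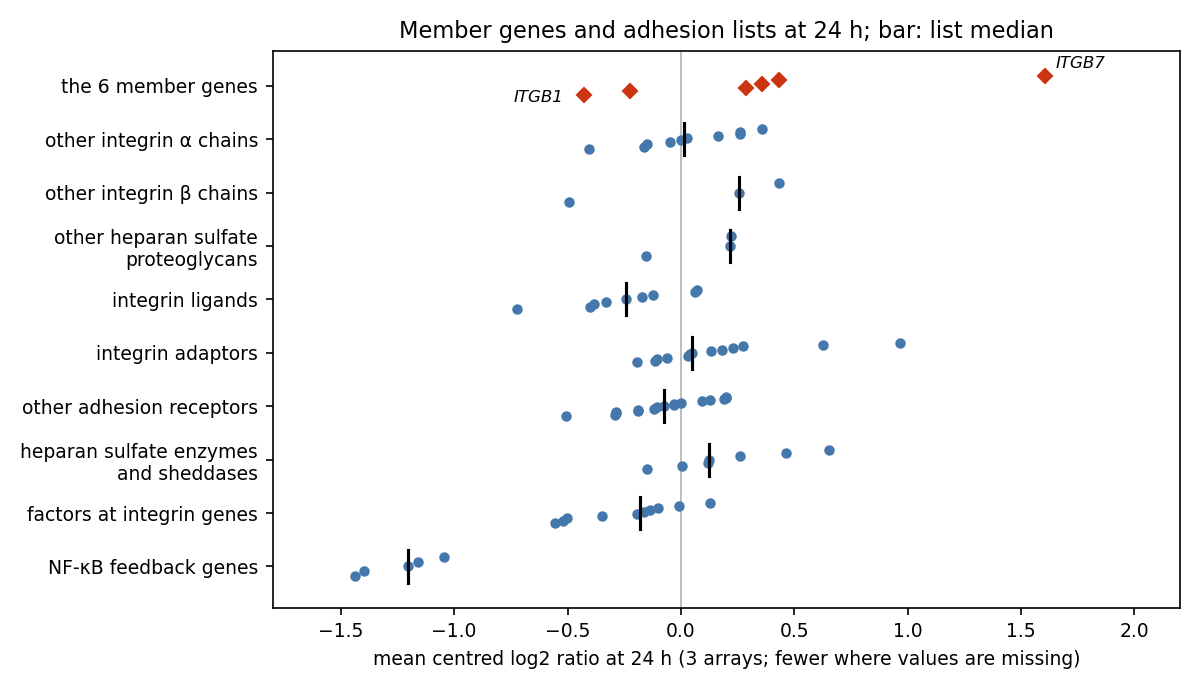
Mean centred log2 ratio at 24 h (horizontal axis) for the 6 genes (red diamonds) and the tested genes of 9 lists (blue points, 1 per gene), with black bars at list medians. ITGB7 at 1.60 stands to the right of all listed genes, the 5 NF-κB feedback genes lie to the left around a median of -1.20, and the other lists have medians from -0.24 to 0.26.

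Markers of other cell types were read in the same way. T cell markers (4 of 6 tested) had a median of -0.053, myeloid markers (3 of 7) -0.23 and erythroid and megakaryocyte markers (4 of 6) 0.073, and 0 of 6 stroma markers had a tested row. The plasma cell markers had a median of 0.25, 6 above and 3 below 0, with TNFRSF17, which encodes the receptor BCMA, at 0.48 ± 0.16 (SE). SLAMF7 was at -0.46 ± 0.26 and at 0.12 without run 2. CD3D was at -1.33 ± 0.77, which rested on -8.99 for sample 2 at 8 h and was 0.16 without that array. CD3E was at 0.16 ± 0.16, and below 0 with all its features averaged. CD68 was at -0.50 ± 0.29 with -2.63 on sample 1 at 12 h, ITGAM at -0.23 ± 0.18 (0.069 without run 2) and KLF1 at 0.091 ± 0.14. HBA1 was at 0.087 ± 0.17, and below 0 with the values as deposited. Their part in the ratios of the 6 genes was not tested.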

How the data were processed

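The labels describe 8 2-colour arrays of TRIzol total RNA from L363 cells, with MLN120B-treated cells in Cy5 and DMSO-treated cells in Cy3. The values analysed were the log2 ratios the authors deposited, 1 column per array. How the authors corrected background, filtered spots and normalized is not given in the sources used here. Base 2 was read from the largest size, 12.4, which a natural log ratio of 16-bit intensities (at most 11.1) cannot reach, and that it holds on all arrays is an assumption. The direction, Cy5 over Cy3, is likely and not stated.

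Each array was centred on its median. Of 15246 features the platform annotation paired 10169 with 1 gene, 4 with several and 5073 with none, and Entrez identifiers gave current symbols for 10128 features and accessions for 17. Features of a gene with values on 6 or more arrays were averaged, and unnamed features were kept apart. Testing needed 2 or more arrays with a value at every time, which 5226 rows had, 3126 of them named. A mean per time was fitted with limma 3.58.1 in R 4.3.3 (lmFit, eBayes, 5 residual degrees of freedom) and tested against 0, 2-sided, with Benjamini-Hochberg adjustment and a threshold of 0.05. Any spread of the DMSO control enters the ratio of its array and cannot be told apart from that of the treated cells. An error of the control shared by all arrays would not show in that spread. The code was tested on simulated data. Python 3.11.15, pandas 2.3.3 and matplotlib 3.10.9 prepared tables and plots.

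The 6 genes, the 14 gene lists and the tests were chosen with earlier results of these data known. The rule for named genes took the 6 genes and their features, the 2 genes of each list with the largest mean size over the 3 times, any list gene past the threshold, and the 3 genes most like ITGB7. Samples of the same number deviated together from their time means at 12 h and 24 h (Pearson r = 0.19, 0.31 and 0.25 over 4413 features), where number and database run coincide. Samples of the same number at 8 h and later deviated oppositely (r from -0.35 to -0.17). With 2 arrays at 8 h, their deviations from the time mean are mirror images. The values for the same run (r from 0.17 to 0.35) therefore follow from these and add no further evidence. The alternatives were other centring, feature and row filters, single features, blocks by sample number or run, array weights, robust variances and arrays or runs left out. Signal intensities were not analysed here, and precision is limited by how many arrays there are.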

Additional observations from a re-analysis of the deposited data

Results flagged for a closer look

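A feature of SDC4 outside the members, 28564_1, had values on 2 arrays and stood far above 0 on both. Its value was 9.82 for sample 2 at 8 h and 3.53 for sample 1 at 24 h, both arrays of database run 2. It had no value on the other 6 arrays.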

How the results depend on the processing

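No member gene passed the threshold in any of the 7 comparisons under any alternative run, and none passed the exact sign-flip test under its 13 alternatives. The sign-flip result says little, because 8 arrays allow no p under 0.00781 before adjustment over 3368 rows, and fewer arrays only larger ones. ITGB7 at 24 h stayed above 0 in 25 of 25 alternatives, at 1.39 to 1.99 with a 24 h array left out and 2.80 after quantile normalization. The smallest adjusted p was 0.115 (limma with array weights). All 3 values at 24 h lay above 0, so leaving out an array or run could not turn the sign. Blocks, robust variances and 8 h or 12 h arrays left out kept the mean at 1.60, so the count says little. With sample number as a replicate block the 24 h ratio of ITGB7 was 1.60 ± 0.35 (SE; limma adjusted p = 0.901). That block is doubtful at 8 h, where same-numbered samples deviated oppositely (r from -0.35 to -0.17). With run as a fixed block it was 1.60 ± 0.34 (adjusted p = 0.429), and in a block on the 12 h and 24 h arrays alone, added after seeing the data, 24 h exceeded 12 h by 1.28 ± 0.48 (adjusted p = 0.712). No block changed a call of a member gene. Leaving out a run other than run 2, and the median of features, were also added after seeing the data. Without centring, the median over rows moved from -0.013 to -0.12 for the mean over the 3 times and from -0.026 to -0.13 at 24 h.

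Signs turned in these cases, and the cause was not tested. At 8 h, quantile normalization gave 0.33 for ITGB7, 0.0099 for ITGA4, 0.024 for ITGB2 and 0.022 for ITGB1. Scale normalization gave 0.33, 0.057, 0.065 and 0.093 for these genes at 8 h, and 0.011 for the mean of ITGAL. Without run 2, which left sample 1 alone at 8 h, the 8 h values were 0.36 for ITGB7, 0.091 for ITGA4, 0.084 for ITGAL, 0.064 for ITGB2 and 0.15 for ITGB1. ITGAL was then 0.013 at 12 h and 0.10 over the 3 times. The replicate block and the fixed block by run both gave 0.21 for ITGB7 and 0.057 for ITGB2 at 8 h, and the random block by run gave 0.014 and 0.022. Averaging all features put ITGB7 at 0.10 at 8 h. Without run 1 the 12 h values were -0.14 for ITGB7, -0.034 for ITGA4 and 0.35 for ITGB1, and ITGA4 was -0.075 at 12 h as deposited. Single features turned ITGA4 over the 3 times (-0.050), ITGB2 over the 3 times (0.035) and ITGB2 at 24 h (0.078 and 0.030). With 1 of the 2 arrays at 8 h left out, the 8 h value was the reading of the other array alone. These values were -0.62 and 0.36 for ITGB7, -0.30 and 0.091 for ITGA4, -0.69 and 0.084 for ITGAL, -0.073 and 0.064 for ITGB2 and -0.49 and 0.15 for ITGB1. With an array left out, 12 h means ran from -0.14 to 0.83 for ITGB7, -0.034 to 0.20 for ITGA4, -0.81 to 0.013 for ITGAL and -0.66 to 0.35 for ITGB1. Over the 3 times they ran from -0.26 to 0.023 for ITGAL.

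Among list genes none passed for the mean over the 3 times. After quantile or scale normalization 1 did (NFKB2), and with a 12 h or 24 h array left out none did. Of all rows 0 passed in limma. For the mean, 6 passed with run as a fixed block, 2 after quantile normalization and 1 after scale normalization. With 1 array enough at each time 1 passed, and with a 12 h or 24 h array left out up to 1 did. At 8 h 7 passed with 1 array enough and 3 with the replicate block, and none with a 12 h or 24 h array left out. Leaving out an 8 h array, run 2 or run 3 left 1 array at 8 h. Counts from those fits are not given. At 12 h 1 passed without run 1 and 1 without sample 3 at 12 h. At 24 h 7 passed after quantile normalization and 2 each after scale normalization, with array weights and without sample 2 at 24 h. With a 12 h or 24 h array left out, up to 1 passed for 24 h against 8 h and up to 2 for 24 h against 12 h. For 12 h against 8 h up to 1 passed with such an array left out, 1 without run 1 and 3 with the replicate block. Counts with 1 array enough are not given for the differences from 8 h, where a row could rest on 1 array.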
